A study of Homo sapiens with 4 samples.

Results

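BRPF3 peaks were examined at the start sites of 7 genes of the MCM group in RKO cells, an established human colon carcinoma line. BRPF3 is a scaffold subunit of histone acetyltransferase complexes of the MYST family. The genes were chosen by name, with earlier results of these data known. A peak was counted as theirs when it lay within 5 kb of the gene's hg19 start site. The start sites were chromosome 3 position 127317200 for MCM2, chromosome 6 position 52149680 for MCM3, chromosome 8 position 48873400 for MCM4 and chromosome 22 position 35796120 for MCM5. They were chromosome 2 position 136634050 for MCM6, chromosome 7 position 99699560 for MCM7 and chromosome 10 position 13203550 for MCM10. All 7 genes had a peak in each of the 3 deposited lists, which gave 21 peaks, 7 in each list, out of 13160 for asynchronous, 11532 for mimosine and 13431 for HU cells. Asynchronous cells were untreated, and mimosine cells were held in 0.5 mM mimosine for 22 h. HU cells had the same mimosine block, 3 h of release and then 3 mM hydroxyurea (HU) for 1 h 30 min. Mimosine holds cells near the start of DNA replication and HU stalls forks by draining nucleotides. Each condition had 1 BRPF3 library, all from the same line with no genetic change named, and all 3 lists were made against 1 IgG library from HU cells. The titles and the antibody field name BRPF3, while a description field names BRPF1/2, and the antibody field was followed. No value has a replicate, so every difference describes these libraries and carries no p-value.

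MCM2, MCM3, MCM4, MCM5, MCM6 and MCM7 encode the subunits of a ring that is loaded onto DNA at replication origins and later becomes the core of the replicative helicase. MCM10 is a separate protein, not a subunit of the ring, that helps to activate the loaded helicase. Dividing cells transcribe these genes as they pass from G1 into S phase, and E2F factors acting at their promoters are a textbook part of that control. Acetylation of histones at origins and promoters by MYST enzymes is likewise a known part of replication and transcription.

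RefSeq promoters of GRCh38.p14 were matched by symbol for 5 of the 7 genes. They are shown because a BRPF3 peak covered the hg19 start site of each of these genes in every list. Positions were not carried between the builds, so a RefSeq start can differ from the hg19 start site used for the peaks. Each promoter runs from 250 bases before the RefSeq start to 50 bases after it, in the direction of transcription. Of the 3 entries for MCM7 the one at the outermost start was used. Motif positions below are counted from the RefSeq start. The capitals mark matches, on either strand, to the E2F-type motifs TTTCGCGC or TTTGGCGC or TTTCCCGC, and overlapping matches run together.
MCM2: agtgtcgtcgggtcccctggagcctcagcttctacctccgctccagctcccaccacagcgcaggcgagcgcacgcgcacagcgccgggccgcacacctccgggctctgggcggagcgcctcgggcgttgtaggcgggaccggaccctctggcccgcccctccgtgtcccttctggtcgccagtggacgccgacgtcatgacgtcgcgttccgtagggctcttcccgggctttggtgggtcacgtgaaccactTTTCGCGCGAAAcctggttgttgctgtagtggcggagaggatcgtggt
MCM3: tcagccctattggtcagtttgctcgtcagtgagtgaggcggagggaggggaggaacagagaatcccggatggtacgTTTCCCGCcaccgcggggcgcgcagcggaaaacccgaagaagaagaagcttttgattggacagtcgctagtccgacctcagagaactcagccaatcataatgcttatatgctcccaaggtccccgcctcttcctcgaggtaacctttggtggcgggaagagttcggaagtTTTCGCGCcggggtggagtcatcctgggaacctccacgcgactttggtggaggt
MCM6: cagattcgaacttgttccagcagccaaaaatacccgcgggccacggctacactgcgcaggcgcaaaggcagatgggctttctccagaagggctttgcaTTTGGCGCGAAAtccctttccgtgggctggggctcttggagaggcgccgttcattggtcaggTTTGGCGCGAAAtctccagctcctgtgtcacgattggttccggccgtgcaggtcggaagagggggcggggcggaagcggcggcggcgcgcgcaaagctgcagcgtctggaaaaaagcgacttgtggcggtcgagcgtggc
MCM7: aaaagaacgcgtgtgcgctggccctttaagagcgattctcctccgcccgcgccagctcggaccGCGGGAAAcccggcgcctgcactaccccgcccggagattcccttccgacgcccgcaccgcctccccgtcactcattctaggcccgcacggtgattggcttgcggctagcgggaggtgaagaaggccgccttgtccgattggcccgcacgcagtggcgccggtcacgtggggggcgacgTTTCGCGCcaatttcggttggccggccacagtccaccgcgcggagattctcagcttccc
MCM10: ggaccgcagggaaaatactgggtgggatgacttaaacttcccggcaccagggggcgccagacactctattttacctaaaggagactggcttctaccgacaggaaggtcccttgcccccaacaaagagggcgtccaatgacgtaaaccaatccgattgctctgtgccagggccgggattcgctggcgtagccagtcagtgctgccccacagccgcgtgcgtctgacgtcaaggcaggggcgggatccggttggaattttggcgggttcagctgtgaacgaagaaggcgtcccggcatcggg

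Matches to the 3 E2F-type spellings stood in the promoters of the ring subunits shown and not in that of MCM10. All 4 ring-subunit promoters shown held TTTCGCGC, against 0.515% of the 35116 promoters in the table. Any of the 3 E2F-type motifs stood in 2.74% of promoters. In MCM6 the matches formed 2 separate stretches of the same 12 letters, which begin 152 and 90 bases before the start. In MCM2 a stretch that reads as a match on both strands begins 2 bases after the start. In MCM3 and MCM7 a TTTCGCGC match begins 4 and 9 bases before the start, and each has a TTTCCCGC match further upstream. MCM10 held none of these letters, which says only that these 3 exact spellings are not in this window. Its printed sequence does hold tttggcgg, which differs from TTTGGCGC in the last letter alone. Looser E2F-type spellings were not searched in any promoter.

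Other motifs were common. CCAAT, the letters bound by NF-Y, stood in 4 of the 5 promoters (all but MCM2) and in 34.6% of all promoters. The SP1-type letters GGGCGG stood in 4 of 5 (all but MCM3) and in 44.95% of all. The CHR letters TTTGAA were in 0 of 5, against 15.2% of all promoters, and TTCGAA was in MCM6 alone, against 1.45%. All 5 promoters lay above the median of the table in CpG ratio, from percentile 67.1 at MCM10 to 98.6 at MCM7. The motif shares are over all promoters, not over those with a high CpG ratio alone. The ratio of observed to expected CpG was 1.15 in MCM7, 1.06 in MCM6, 1.00 in MCM2, 0.905 in MCM3 and 0.792 in MCM10, against a median of 0.579 over the table.

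Every MCM start site lay inside its BRPF3 peak. The start base itself was covered by 7 of 7 peaks in every list, and the 5 kb window held no further peak. Nearest outside the window was an HU peak that began 5312 bp downstream of the MCM7 start. For scale, 5.26% of the chromosome span lay within 5 kb of an asynchronous peak, 4.08% within 5 kb of a mimosine peak and 5.48% within 5 kb of an HU peak. This share is over all bases, so it does not show what start sites of other genes would give. The 7 merged regions, formed from peaks that touch, each held a peak of all 3 lists, as did 71.5% of all 14039 merged regions.

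The ring-subunit genes MCM4 and MCM7 carried the widest peaks of the group. At MCM4, whose start region is a known replication origin shared with PRKDC, the DNA repair kinase gene, the peak was 6966 bp wide in asynchronous cells (chr8:48869744-48876709). It was 4346 bp in mimosine and 7658 bp in HU cells. At MCM7, which overlaps AP4M1 in the RefSeq table, the asynchronous peak was 7511 bp wide (chr7:99694007-99701517), the mimosine peak 4584 bp and the HU peak 6840 bp. Both genes stood at or above the 93.8 width percentile of each list, so they were among the broader BRPF3 sites of these libraries.

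At MCM2, MCM3 and MCM5 the peaks were narrower than at MCM4 and MCM7 in each list. The MCM2 peak was 3132 bp wide in asynchronous cells (chr3:127316644-127319775), 1444 bp in mimosine and 4254 bp in HU cells. The MCM3 peak was 3447 bp (chr6:52147173-52150619), 1092 bp and 4409 bp in the same order. The MCM5 peak was 3622 bp (chr22:35794995-35798616), 1699 bp and 3188 bp. The mimosine peak was the narrowest of the 3 at each of these genes, and the HU peak was the widest at MCM2 and MCM3 but not at MCM5.

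MCM6 had the narrowest asynchronous peak of the group, 2523 bp (chr2:136632251-136634773), with 1203 bp in mimosine and 2362 bp in HU cells. MCM10, the one gene here outside the ring, had 4308 bp in asynchronous cells (chr10:13202345-13206652), 1833 bp in mimosine and 3103 bp in HU cells. Both had their widest peak in asynchronous cells. Against the median over all peaks, 6 of 7 MCM peaks were wider in asynchronous cells (median of the list 2644 bp), 2 of 7 in mimosine cells (1855 bp) and 6 of 7 in HU cells (2898 bp). MCM6 was the exception in both of the lists with 6.

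**Figure D1:**
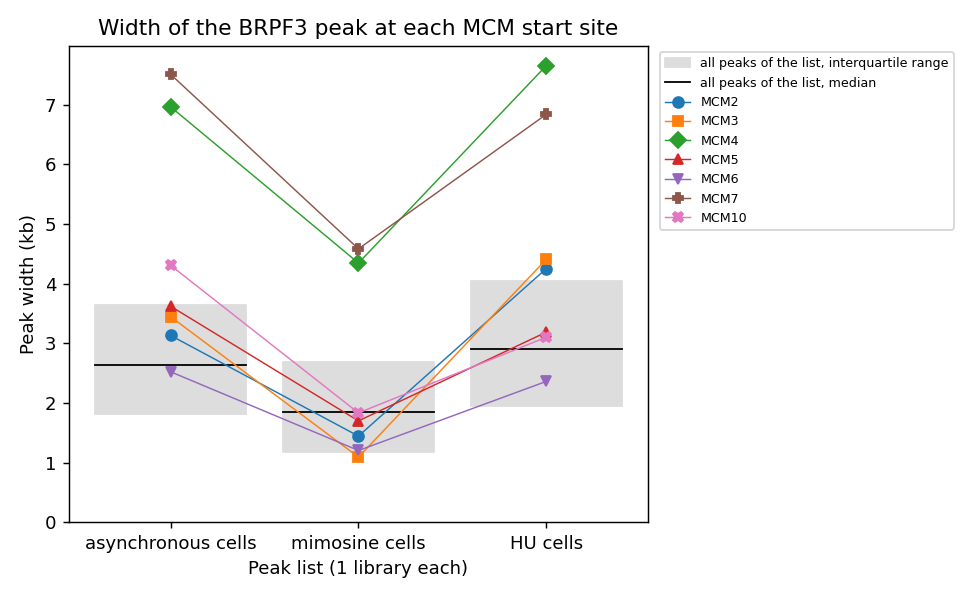
Width of the BRPF3 peak at each MCM start site (y axis, kb) in the 3 lists (x axis, 1 library each), 1 line per gene, with the median (black line) and interquartile range (grey) of all peaks of the list. The 2 genes at the top, MCM4 and MCM7, lie above the grey range in each list, and all 7 lines dip in mimosine cells.

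Narrowing in mimosine cells went further at most MCM genes than at shared BRPF3 sites in general. The mimosine peak was narrower than the asynchronous one at 7 of 7 genes, but this alone was near the background, since the same held at 98.2% of the 8653 regions with exactly 1 peak per list. The size of the narrowing was what differed. The reads behind each list are not known, and the part of depth in these widths was not tested. The ratio of mimosine to asynchronous width was 0.317 at MCM3, 0.426 at MCM10, 0.461 at MCM2, 0.469 at MCM5 and 0.477 at MCM6. It was 0.610 at MCM7 and 0.624 at MCM4. All 7 ratios lay below the median of the 8653 regions, 0.694, and 5 lay below their lower quartile of 0.571. A ratio as low as that of MCM3 was found at 2.50% of these regions. MCM7 is not among the 8653, because its merged region (chr7:99684595-99701517) held 2 asynchronous, 3 mimosine and 2 HU peaks, and 11.9% of the 10044 regions present in all 3 lists held more than 1 mimosine peak. Over its whole merged region the ratio at MCM7 was 0.516.

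The mimosine peaks were nested in the others. At 7 of 7 genes the mimosine peak lay wholly inside the asynchronous peak and wholly inside the HU peak. Among the 8653 regions this was so at 89.8% and 98.3%. The mimosine peak was narrower than the HU peak at 7 of 7 genes as well, against 99.9% of regions. MCM3 had the lowest ratio of mimosine to HU width, 0.248, and MCM2 the next, 0.339. The start-site peaks of MCM7 gave 0.670, but over its whole merged region the ratio was 0.498. The 6 genes that are among the 8653 regions all lay below their median of 0.630, with MCM10 the highest at 0.591.

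HU cells divided the group. The HU peak was wider than the asynchronous peak at 3 of 7 genes, while 75.1% of the 8653 regions had a wider HU peak. It was wider at MCM2 (ratio 1.36), MCM3 (1.28) and MCM4 (1.10), which is close to the 1.09 median of all regions. It was narrower at MCM6 (0.936), MCM7 (0.911), MCM5 (0.880) and MCM10 (0.720). The lower quartile was 1.00, so any narrower HU peak falls below it. A ratio as low as that of MCM10 was found at 0.555% of the regions. Over the whole merged region of MCM7 the HU to asynchronous ratio was 1.04, so the count of narrower HU peaks there depends on where a broad region is split. The start-site peak ended 5553 bp downstream of the start in asynchronous and 5222 bp in HU cells, and a second peak followed in both.

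**Figure D2:**
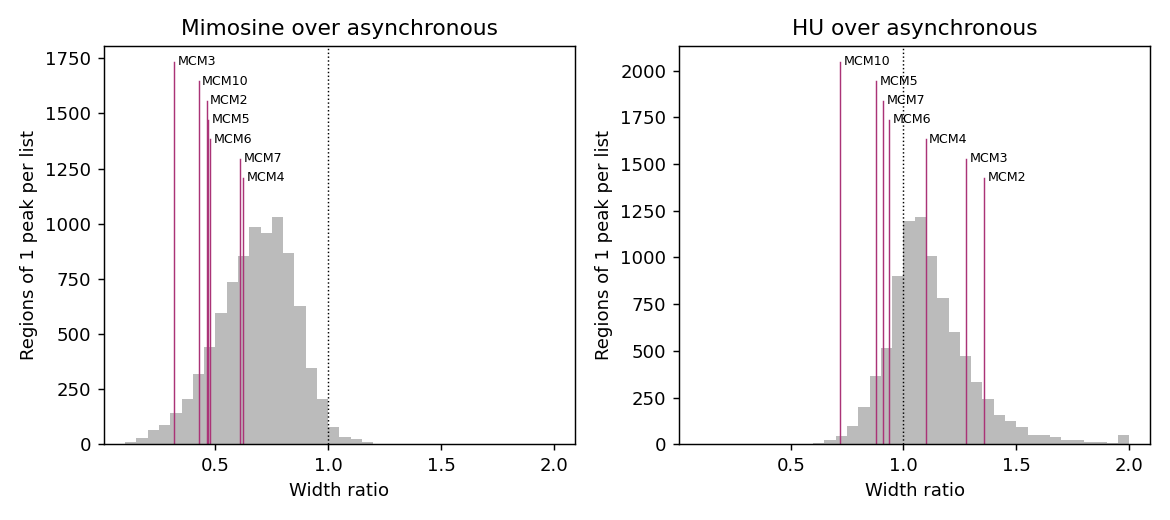
Histograms of the width ratio (x axis) over the 8653 regions with 1 peak per list (y axis, number of regions), for mimosine over asynchronous cells (left) and HU over asynchronous cells (right), with MCM genes as labelled lines and ratios above 2 placed in the last bar. All 7 lines are left of the 0.694 median on the left, and the lines on the right run from 0.720 at MCM10 to 1.36 at MCM2.

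BRPF3 peaks reached further into the gene than upstream of it at 6 of 7 genes in each list. In asynchronous cells the downstream reach was 5553 bp at MCM7, 3102 bp at MCM10, 2575 bp at MCM2, 2507 bp at MCM3, 2496 bp at MCM5 and 1799 bp at MCM6. The upstream reach at these genes was 1957, 1205, 556, 939, 1125 and 723 bp in the same order. MCM4 was the exception, with 3656 bp upstream, towards PRKDC, and 3309 bp downstream. The share of the peak downstream of the start ran from 47.5% at MCM4 to 82.2% at MCM2 in asynchronous cells. Start sites of other genes in the files' build were not used here, so whether this skew is usual for BRPF3 was not tested.

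Both edges drew in under mimosine, which is the nesting given above, found at 89.8% of the 8653 regions. In base pairs the downstream edge moved further at 7 of 7 genes, though at MCM6 only by 667 against 653 bp. The downstream reach was the longer to begin with at 6 of 7 genes. Whether the edges move alike at other start sites was not tested. The shift of the downstream edge was 2179 bp at MCM7, 1685 bp at MCM10, 1461 bp at MCM5, 1446 bp at MCM3, 1376 bp at MCM4, 1268 bp at MCM2 and 667 bp at MCM6. Upstream it was 748, 790, 462, 909, 1244, 420 and 653 bp at the same genes. Taken as a share of the starting reach the picture differed, and the downstream loss was the larger at only 3 of 7 genes (MCM4, MCM5 and, by 39.2% against 38.2%, MCM7). Upstream, MCM3 lost 96.8% of its reach, MCM6 90.3% and MCM2 75.5%. Their mimosine peaks began 30, 70 and 136 bp before the start, so they lay almost wholly over the transcribed side. The start sites are rounded to 10 bp, and such short reaches shift with the position used.

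In HU cells the edges lay beyond those of mimosine cells at both ends of all 7 genes. This is the nesting given above, which held at 98.3% of the 8653 regions. The difference was 802 to 2527 bp downstream and 357 to 1648 bp upstream. Compared with asynchronous cells, the HU peak of MCM3 ended 1081 bp further downstream and that of MCM2 1009 bp further. At MCM10 the downstream edge lay 875 bp short of the asynchronous one.

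**Figure D3:**
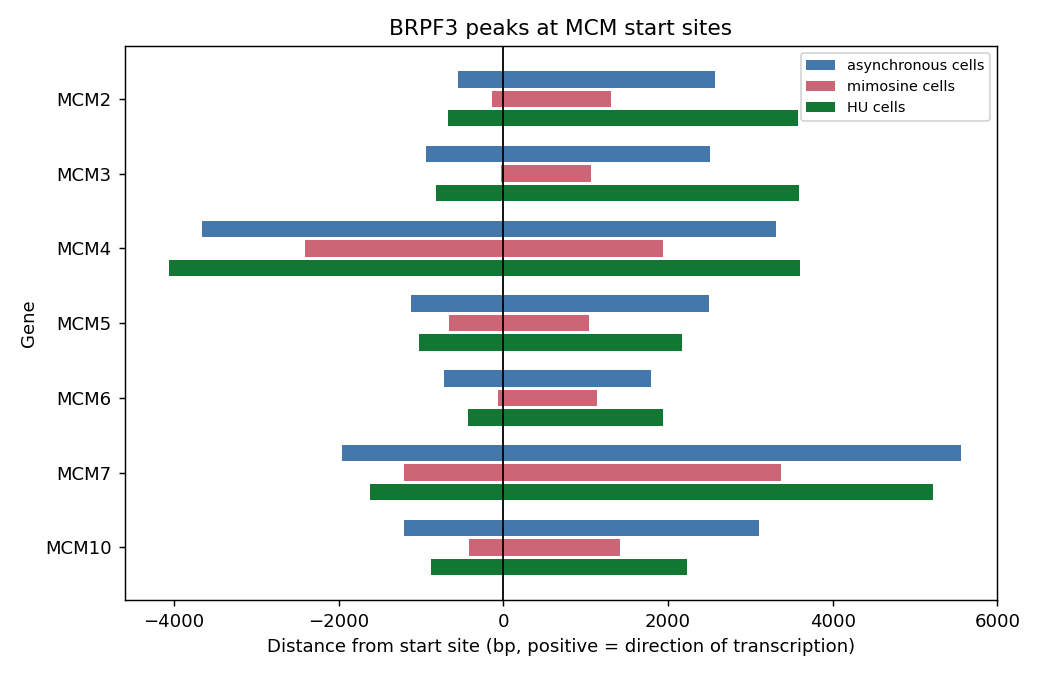
Extent of the BRPF3 peak at each MCM start site (x axis, distance from the start in bp, positive in the direction of transcription; y axis, gene) in asynchronous, mimosine and HU cells. Mimosine peaks lie inside the others at each gene, and the MCM4 peak alone reaches further upstream than downstream.

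The authors' score, 10 times the negative base-10 logarithm of the peak caller's p-value as its form implies, ranks peaks within a list. In asynchronous cells it was 3100 at MCM4, a value at which many peaks are tied, 2467 at MCM7, 1226 at MCM3 and 1141 at MCM5. It was 591 at MCM2, 521 at MCM6 and 405 at MCM10. These stood at rank percentiles 95.99, 89.8, 74.7, 72.5, 51.8, 47.9 and 40.5 of the list. MCM4 and MCM7 thus led the group, and MCM10 had the lowest score although its peak was wider than those of MCM2, MCM3, MCM5 and MCM6.

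In mimosine cells the scores were 1505 at MCM7, 1196 at MCM4, 427 at MCM3, 320 at MCM5, 177 at MCM2, 149 at MCM10 and 75.1 at MCM6. In HU cells they were 2679 at MCM4, 2473 at MCM7, 918 at MCM3, 899 at MCM5, 350 at MCM2, 345 at MCM10 and 125 at MCM6. MCM6 had the lowest score in both treated lists, at rank percentile 13.1 in mimosine and 18.5 in HU cells, while MCM10 was the lowest in asynchronous cells. The lists differ in length and in unknown read depth, so scores were not compared between them directly.

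Ranks were then taken over the 10044 regions that hold a peak of all 3 lists, using the highest score of each list in a region, so that all 3 ranks have the same length. By this measure MCM6 stood at percentile 32.3 of the asynchronous list, 8.15 of the mimosine list and 1.73 of the HU list. Its position in HU cells was 30.6 points lower than in asynchronous cells. A difference of 20 points or more in that direction was found at 3.83% of regions, and one as large as that of MCM6 at 0.647%. In mimosine cells it was 24.2 points lower, and 6.26% of regions were lower by 20 points or more. MCM6 was the only one of the 7 past 20 points in either comparison.

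Lower ranks in HU than in asynchronous cells were seen at 7 of 7 genes, against 47.4% of the 10044 regions. MCM2 moved from percentile 37.2 to 18.5, MCM3 from 67.0 to 55.1, MCM5 from 64.1 to 54.2, MCM4 from 95.2 to 88.1 and MCM10 from 23.1 to 18.1. MCM7 differed by only 0.09 points and counts as lower by sign alone. The median difference over the 7 genes was 9.96 points lower in HU cells, against a median change of 0.015 points over the 10044 regions. In mimosine cells 5 of 7 genes were lower in rank than in asynchronous cells, against 48.8% of regions, with MCM5 lower by 15.7 points, MCM4 by 11.2, MCM3 by 9.76 and MCM2 by 7.45. MCM7 and MCM10 were higher by 1.55 and 2.04 points. The asynchronous score of MCM4 was the tied value of 3100, and 980 asynchronous peaks stood at or above it. Its rank of 95.2 is thus shared by a block of tied regions, and the size of its 2 differences is not resolved. With 1 library per condition, whether the HU or the mimosine differences exceed the spread between libraries was not tested.

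**Figure D4:**
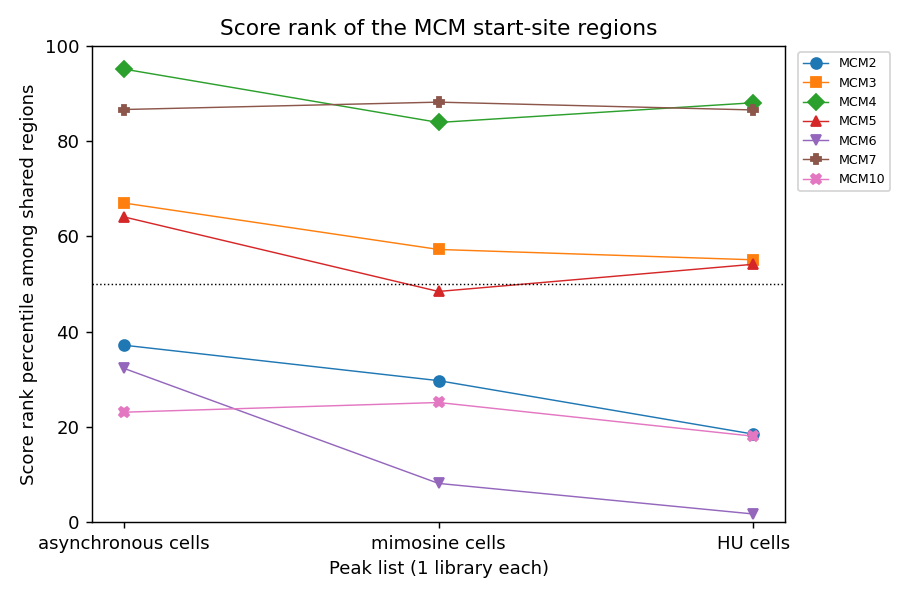
Score rank percentile of each MCM start-site region among the 10044 regions of all 3 lists (y axis) in the 3 peak lists (x axis, 1 library each), 1 line per gene, with a dotted line at the middle rank. MCM6 ends at 1.73 in HU cells, and MCM4 and MCM7 stay between 83.9 and 95.2 in each list.

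The 3 genes with a wider HU than asynchronous peak had a lower rank in HU cells, as did the 4 with a narrower one. The 3 of 3 thus follows from the 7 of 7 above and does not link rank to width. Among the 6495 regions with 1 peak per list and a wider HU peak, 45.0% had a lower rank. At MCM2 the HU peak was 1122 bp wider than the asynchronous one and its rank was 18.7 points lower. At MCM3 it was 962 bp wider and 11.9 points lower. At MCM4 it was 692 bp wider and lower in rank by an amount that the tied score does not resolve. MCM7 kept its rank in all 3 lists, between 86.6 and 88.2, while its mimosine peak was narrower.

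The surroundings of the 7 start sites differed in how many peaks they held. The counts here include the peak at the start itself. Within 50 kb of the start, asynchronous cells had 1 peak at MCM3, MCM6 and MCM10, 2 at MCM4, 3 at MCM2, 4 at MCM5 and 6 at MCM7. No other merged region lay within 50 kb of the MCM3, MCM6 and MCM10 regions, as for 33.7% of all merged regions.

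**Figure D5:**
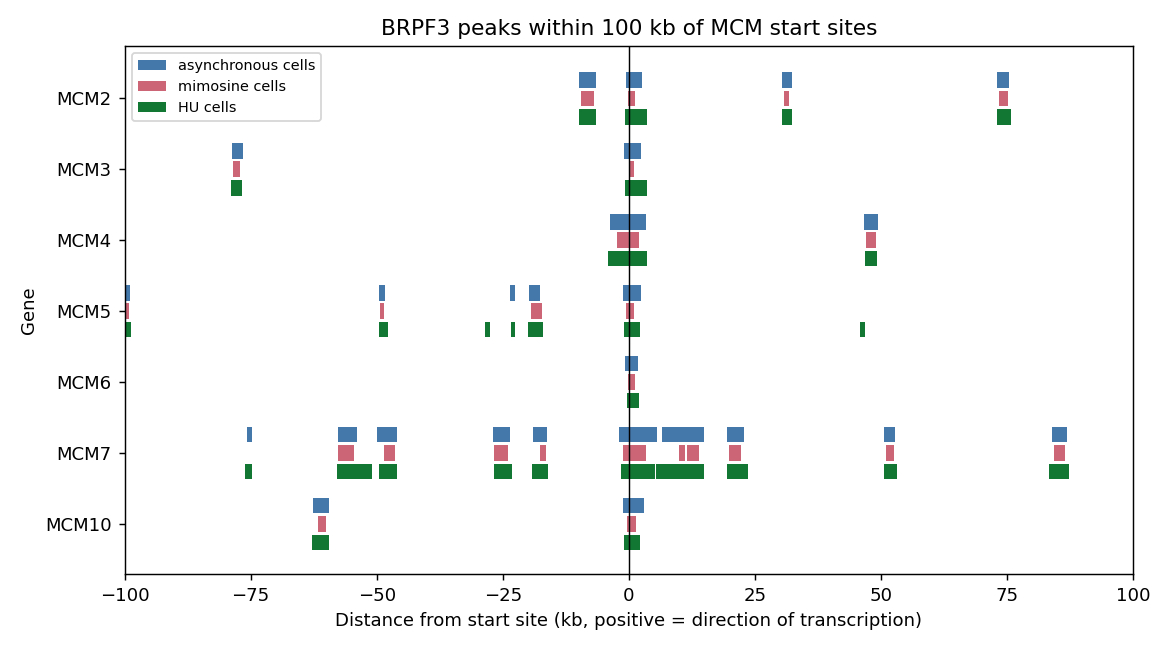
BRPF3 peaks within 100 kb of each MCM start site (x axis, distance in kb, positive in the direction of transcription; y axis, gene) in asynchronous, mimosine and HU cells. MCM6 shows no peak but that at its start, and MCM7 shows 10 in each list.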

How the data were processed

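ChIP-seq of BRPF3 was performed in 3 libraries of RKO cells, with 1 IgG library as the control named in all 3 list names. Per the submitters' processing notes the tools were MACS 1.4.0, bedtools, Bowtie 0.12.8 and SAMtools, with no role or setting given, and the builds hg18 and hg19. For each of these libraries the authors deposited a list of peaks with a score, in the form of 10 times −log10 of the p-value. The start sites used are hg19, and peaks covered them in all 3 lists. Read depth is unknown.

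Distances run from the start site to the nearest base of a peak, with positions counted from 1. Peaks of different lists sharing at least 1 bp were merged. The direction of transcription came from the RefSeq promoter table for 5 genes and from general knowledge for MCM4 and MCM5. For ranks over shared regions, scores above 3100 were set to 3100. All 7 genes named by the rule are described. The genes, measures and alternatives were chosen with earlier results of these data known, and the ranks over shared regions were added after the values were seen. The other origin licensing genes were not analysed here, for want of start sites in the files' build. The merging and width code was tested on simulated data. Python 3.11.15, pandas 2.3.3, NumPy 2.4.6 and matplotlib 3.10.9 were used.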

Additional observations from a re-analysis of the deposited data

How the results depend on the processing

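Of 74 alternative values for 20 results, 62 kept their direction and stayed within 1.5 times the main value. Window sizes of 1 and 10 kb, and the start base itself, changed no count. They could not have done so, since all 21 peaks covered the start base, and these values are among the 62. With a score of 100 or more MCM6 had no mimosine peak, which left 6 genes with a peak of all 3 lists. Limiting each list to its 5000 highest-scoring peaks left 4 genes with an asynchronous peak, 3 with a mimosine peak, 4 with an HU peak and 3 with all of them. MCM2, MCM6 and MCM10 then had none, and MCM5 none in mimosine cells. Under this limit the mimosine peak was narrower at 3 of 3 genes against either list and the HU peak at 2 of 4, the median covered in mimosine cells was 0 bp, and the median HU rank percentile was 41.3. Both the number of peaks and the genes that remain change under this limit, and their parts in these shifts were not tested. The median ratio of HU to asynchronous width, 0.936, turned to 1.005 under this limit and to 1.04 over whole merged regions, so the group as a whole gives no direction for it. A reciprocal overlap of 50% kept 2 genes (MCM4 and MCM7), since narrow mimosine peaks cannot cover 50% of a wide partner. Ranks over shared regions, added after the values were seen, had the same sign with scores as deposited (7 of 7 lower in HU cells) and in regions of 1 peak per list (6 of 6). No paired analysis was possible because each condition had 1 library. The unknown depth limits what an edge or an absent peak means.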

Other observations

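Beyond the start sites, the MCM genes lay in very different BRPF3 surroundings. MCM6 stood alone, with no other BRPF3 region within 105.1 kb. MCM3 had its nearest other region 75.6 kb away and MCM10 58.2 kb away, both upstream. MCM7 lay at the other extreme, with 10 peaks within 100 kb of its start in each of the 3 lists. The asynchronous peaks covered 39.3 kb of that window, the mimosine peaks 23.8 kb and the HU peaks 45.6 kb.

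At MCM2 the strongest nearby peak was not the one at the start. A peak from 9832 to 6553 bp upstream of it scored 2202 in asynchronous cells, against 591 at the start, and the HU peak there scored 2307 against 350. In mimosine cells the same place held 2 peaks with scores of 1204 and 56.9. The nearest other peak of MCM10 was much farther off, from 62.7 to 59.4 kb upstream in asynchronous cells. There the asynchronous peak scored 607, the mimosine peak 456 and the HU peak 907. The start of MCM10 itself scored 405, 149 and 345. Near MCM5, small peaks differed between lists. HU cells held 6 peaks within 50 kb of the start, asynchronous cells 4 and mimosine cells 3, and the 2 found only in HU cells scored 54.6 and 84.2, near the lowest score of 50 in that list. No peak away from a start was assigned to a gene.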
